A study of Mus musculus with 12 samples.

Results

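The 8 genes described here encode enzymes of cholesterol synthesis: Hmgcs1, Idi1, Fdps, Sqle, Lss, Cyp51, Msmo1 and Dhcr7. They were chosen by gene symbol and account for 8 of the 18193 genes on the arrays. A total of 19 of the 45037 analysed probe sets carried a single symbol from this group, with 5 for Hmgcs1, 3 each for Lss and Cyp51, 2 each for Idi1, Fdps and Msmo1, and 1 each for Sqle and Dhcr7. Affymetrix Murine 430 2.0 arrays, which read the 3′ end of transcripts, were hybridised with labelled cRNA from mouse tissue. The 4 groups were liver of PGC1beta mutant mice, liver of control mice, quadriceps muscle of PGC1beta mutant mice and quadriceps muscle of control mice, with 3 arrays in each group. Both genotypes carried the C57BL/6 label, and the series title calls the mutation hypomorphic, that is, a mutation that leaves reduced function. The labels state neither the age nor the sex of the mice.

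Cholesterol is built from acetyl-CoA through the mevalonate pathway, which makes isoprenoid units, and then through squalene and lanosterol. The genes of the pathway are classic targets of SREBP-2, a membrane-bound transcription factor that the escort protein SCAP carries to the Golgi when sterols are low, while INSIG proteins hold the complex back when sterols are high. Liver is a main site of this synthesis in the body. PGC-1beta is a transcriptional coactivator known for its action on mitochondrial genes and, in liver, as a partner of SREBP factors. The comparison of mutant with control tissue asks how the transcripts of the pathway stood when this coactivator was mutated.

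The promoters of the pathway genes are shown because sterol-regulated promoters typically pair an SREBP site with a nearby NF-Y or Sp1 site. Promoter windows from RefSeq (mouse build GRCm38.p6), running from 250 bases before to 50 bases after each gene's start, matched 6 of the 8 genes (Hmgcs1, Idi1, Lss, Cyp51, Msmo1 and Dhcr7) and 8 windows. Each window was searched on both strands for the NF-Y box CCAAT, the Sp1 box GGGCGG, the sterol regulatory element core TCACNCCAC and the estrogen-related receptor element TCAAGGTCA, and no match overlapped another motif. CCAAT was found in 6 of 6 genes and 6 of their 8 windows, against 37.4% of all 32851 windows of this length, and GGGCGG in 6 of 6 genes and 7 of 8 windows, against 35.7% of windows. TCACNCCAC was found for 1 of 6 genes, Hmgcs1, against 1.24% of windows. TCAAGGTCA was found for 0 of 6 genes, against 0.423% of windows, so these letters were not in the windows searched. The stretches are written 5′ to 3′ on the strand of the gene. In the stretch named Hmgcs1 sterol element (plus strand, chr13:119690189-119690247) the capitals mark the match to TCACNCCAC, which began 137 bases before the start. In the others the capitals mark CCAAT or its reverse complement. Only 1 such match is shown for each gene, and Hmgcs1, Idi1, Msmo1 and Dhcr7 held more than 1. The matches shown began 45 bases before the start for Hmgcs1 (plus strand, chr13:119690281-119690335), 45 for Idi1 (plus strand, chr13:8885536-8885590), 62 for Lss (plus strand, chr10:76531518-76531572), 29 for Cyp51 (minus strand, chr5:4104698-4104751), 55 for Msmo1 (minus strand, chr8:64733604-64733658) and 49 for Dhcr7 (plus strand, chr7:143830140-143830194).
Hmgcs1 sterol element: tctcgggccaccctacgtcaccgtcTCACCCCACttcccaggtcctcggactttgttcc
Hmgcs1: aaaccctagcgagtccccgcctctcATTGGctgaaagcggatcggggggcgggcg
Idi1: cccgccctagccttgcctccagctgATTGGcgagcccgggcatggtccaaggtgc
Lss: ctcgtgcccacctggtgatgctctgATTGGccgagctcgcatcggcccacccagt
Cyp51: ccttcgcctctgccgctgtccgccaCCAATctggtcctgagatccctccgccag
Msmo1: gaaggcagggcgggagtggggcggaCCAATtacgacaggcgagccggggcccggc
Dhcr7: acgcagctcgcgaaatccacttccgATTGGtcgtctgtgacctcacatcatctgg

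The arrays behaved as their tissue labels state. Albumin (Alb) read 10547 to 12380 on the liver arrays and 15.8 to 75.3 on the muscle arrays, and skeletal actin (Acta1) read 3.25 to 17.1 on the liver arrays and 12185 to 12940 on the muscle arrays. The median deposited intensity of an array lay between 27.2 and 40.1 in liver and between 20.1 and 22.3 in muscle, and pairs of arrays correlated at 0.943 to 0.960 in liver and 0.961 to 0.971 in muscle. The mutated gene itself, Ppargc1b, read 402, 491 and 202 in mutant liver, against 544, 282 and 479 in control liver, and 423, 280.1 and 271 in mutant muscle, against 302, 284 and 332 in control muscle. Its groups overlapped in both tissues, with a log2 difference in limma's moderated test of -0.28 in liver (adjusted p = 0.691) and 0.06 in muscle (adjusted p = 0.998), so the array signal for this gene does not check the genotype labels. The position of its probes relative to the mutation was not examined. Liver mutants 1 and 3 stood apart in how much brighter 3′ control probes were than 5′ ones, a sign of RNA integrity: the mean log2 ratio was 1.90, 0.90 and 1.87 on mutant liver arrays 1, 2 and 3, against 0.74, 0.97 and 0.50 on control liver arrays 1, 2 and 3. In muscle it lay between 0.33 and 0.56 on all 6 arrays.

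All 8 enzymes were far higher in liver than in muscle, in both genotypes. Each gene was taken from its brightest probe set, and here all 12 arrays were quantile normalised together on the scale log2(intensity + 16), with intensities printed after the offset was taken off again. Every liver array stood above every muscle array for 8 of 8 genes. Within a genotype, with 3 liver against 3 muscle arrays, the groups were also separated in this direction for 8 of 8. That looser criterion was met by 31.7% of all genes in mutant and 29.5% in control mice. The share of all genes over all 12 arrays was not counted. In addition, 8 of 8 passed limma's test at an adjusted p of 0.05 in mutant mice, where 27.7% of all genes tested were higher in liver, and in control mice, where 26.3% were. Genes entered these tests and shares if they stood above the filter on dim genes in either tissue. Cyp51 did so only in liver, where it is high, so its call adds no support. The median log2 difference between liver and muscle over the 8 genes was 3.14 in mutant mice and 3.67 in control mice. Over all genes it was 0.06 in mutant and -0.00 in control mice. With the values as deposited, the median over all genes moved to 0.55 in mutant mice and 0.48 in control mice, and the median over the 8 genes to 3.78 in mutant and 4.22 in control mice.

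Msmo1, which encodes the methylsterol monooxygenase that removes methyl groups from sterol intermediates, had the widest gap of the 8 when each gene was taken from its brightest probe set. It read 2538 ± 314 in mutant liver and 31.1 ± 20.9 in mutant muscle, a log2 difference of 5.85, and 3725 ± 777 in control liver and 27.7 ± 7.96 in control muscle, a log2 difference of 6.42 (SD, n = 3 in each group, limma's adjusted p = 1.21e-10 in controls). Hmgcs1, the cytosolic HMG-CoA synthase that stands early in the pathway, had the narrowest gap on the same terms. It read 2165 ± 542 in mutant liver and 578 ± 68.2 in mutant muscle, a log2 difference of 1.85, and 2831 ± 1312 in control liver and 573 ± 22.6 in control muscle, a log2 difference of 2.16 (limma's adjusted p = 3.82e-05 in controls). In muscle, Hmgcs1 was read well above the array background, whereas Cyp51, Msmo1 and Sqle lay close to the offset of 16, as did Lss in mutants. The size of their tissue gap depends on that offset, and other genes were not free of it. With an offset of 64 the control gap fell from 4.36 to 3.74 for Idi1 and from 3.67 to 2.99 for Dhcr7. The order of the genes also depended on the processing. With the mean of all probe sets, the log2 difference of Msmo1 was 2.87 in mutants and 3.53 in controls, below that of Idi1, 4.64 in mutants and 4.13 in controls. In controls, Lss had a narrower gap than Hmgcs1 with the mean of all probe sets (1.60 for Lss and 1.80 for Hmgcs1) and on unscaled values (2.81 for Lss and 2.89 for Hmgcs1), as did Fdps with the mean of all probe sets (1.75). For Msmo1 and Fdps that mean takes in a second probe set too dim to be tested. Taken alone, the second set had a control gap of 0.64 for Msmo1 and -0.05 for Fdps.

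The remaining enzymes lay between those values. Idi1, the isomerase of the isoprenoid units, read 2489 ± 180.4 in mutant liver and 72.6 ± 14.1 in mutant muscle, with a log2 difference of 4.83, and 1737 ± 445 in control liver and 67.6 ± 4.01 in control muscle, with a log2 difference of 4.36. For Fdps, which makes farnesyl diphosphate, the mean was 1670 ± 279 in mutant liver and 176 ± 14.5 in mutant muscle, and 2569 ± 589 in control liver and 200.8 ± 29.4 in control muscle. Sqle, the squalene epoxidase, read 402 ± 40.2 in mutant liver and 39.0 ± 4.89 in mutant muscle, and 572 ± 124 in control liver and 31.2 ± 14.7 in control muscle. Lanosterol synthase, Lss, reached 300.0 ± 64.6 in mutant liver and 21.0 ± 13.6 in mutant muscle, and 319 ± 83.5 in control liver and 52.0 ± 6.09 in control muscle. Cyp51, the lanosterol demethylase, was at 597 ± 98.8 in mutant liver and 15.2 ± 3.66 in mutant muscle, and at 602 ± 151 in control liver and 17.7 ± 3.10 in control muscle. Dhcr7, which catalyses the last step to cholesterol in the Kandutsch-Russell branch, was at 534 ± 157 in mutant liver and 55.4 ± 14.3 in mutant muscle, and at 913 ± 303 in control liver and 56.4 ± 19.3 in control muscle. Across these 6 genes the control log2 difference lay between 2.27 for Lss and 4.36 for Idi1. Levels of different genes are read by different probes and are not set against each other here.

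**Figure D1:**
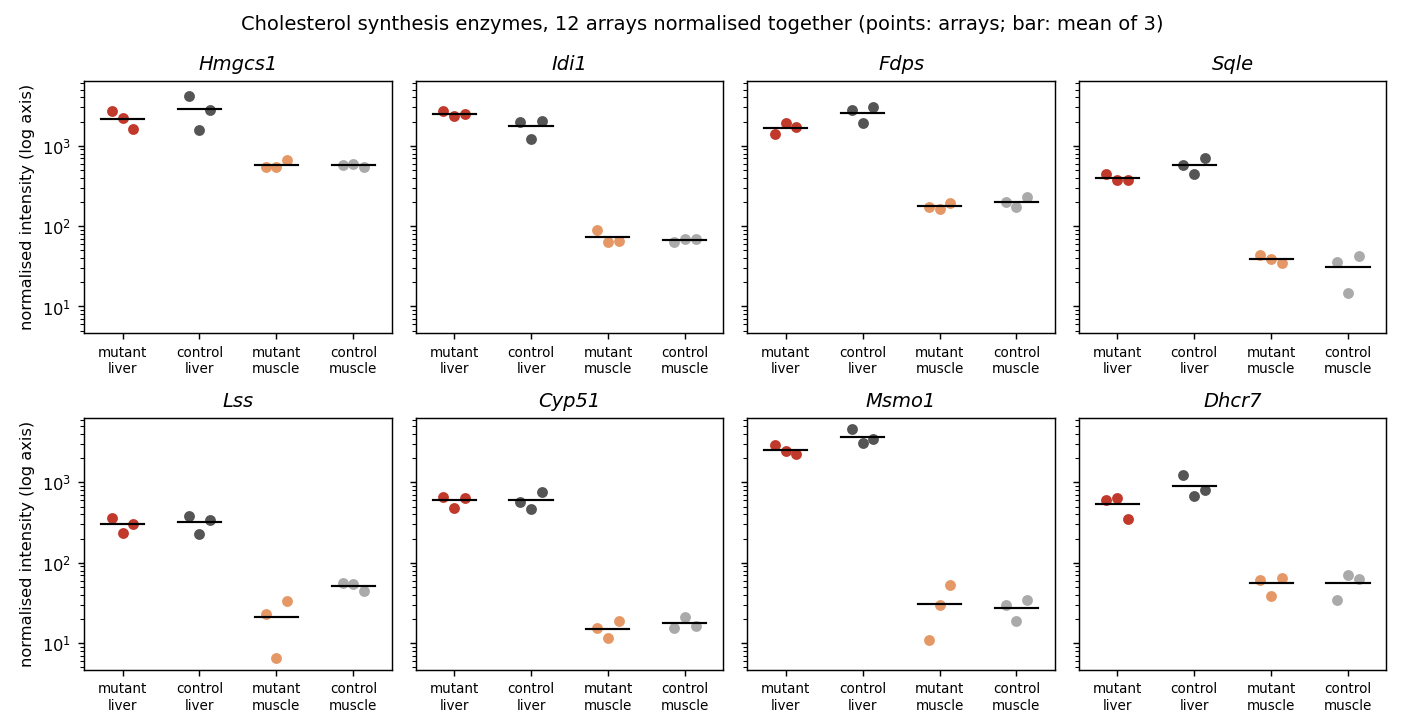
Normalised intensity (log axis) of the 8 cholesterol synthesis enzymes on each of the 12 arrays, normalised together, with points for arrays and a bar for the group mean (n = 3), in the order mutant liver, control liver, mutant muscle and control muscle. For all 8 genes every liver array lies above every muscle array, and in liver the mutant and control arrays overlap for most genes.

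In mutant liver the log2 difference from control liver was below 0 for 6 of the 8 enzymes and above 0 for 2. Those 2 were Idi1, at 0.57, and Cyp51, at 0.00, which is no difference in either direction. Over all genes 51.2% had a difference above 0. At an adjusted p of 0.05 in limma's test 0 of 8 passed, against 3.35% of the 13326 genes tested. The median log2 difference was -0.40, against 0.01 over all genes. It was -0.18 on the deposited values without scaling and -0.19 after median centring, against 0.02 and 0.01 over all genes. An unadjusted p below 0.05 was reached by 5 of 8, against 19.6% of genes, and the 3 mutant arrays did not overlap the 3 control arrays for 3 of 8, against 24.0% of genes. For the values below, each tissue was normalised on its own. The labels name each array as a separate sample of its group but do not say that each came from a different mouse, so the p-values cover the spread among these 12 samples, which may be partly technical.

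The early steps of the pathway included 2 genes with opposite signs. Hmgcs1 read 3712, 3039 and 2193 on mutant arrays 1, 2 and 3, against 5698, 2121 and 3830 on control arrays 1, 2 and 3. The groups overlapped, since control 2 was the lowest of the 6, and the log2 difference was -0.30 (SE 0.30, 95% interval -0.97 to 0.37, limma's adjusted p = 0.651). Idi1 read 3692, 3178 and 3412 on mutant arrays 1, 2 and 3, against 2671, 1646 and 2783 on control arrays 1, 2 and 3. All mutant arrays were above all control arrays, with a mean of 3428 ± 257 in mutant and 2367 ± 626 in control liver (SD, n = 3 each). The log2 difference was 0.57 (SE 0.18, 95% interval 0.17 to 0.97), a fold of 1.48, and it did not pass (limma's adjusted p = 0.117). Idi1 was the only one of the 8 whose mutant arrays all lay above the control arrays, where 13.0% of all genes did so.

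Fdps and Sqle, which act around squalene, had lower means in mutant liver. Fdps read 1868, 2656 and 2321 on mutant arrays 1, 2 and 3, against 3796, 2622 and 4250 on control arrays 1, 2 and 3. Mutant 2 stood just above control 2, so the groups overlapped, and the log2 difference was -0.62 (SE 0.18, 95% interval -1.03 to -0.21, limma's adjusted p = 0.0938). Sqle read 574, 480.1 and 480.1 on mutant arrays 1, 2 and 3, against 743, 573 and 906 on control arrays 1, 2 and 3. Its groups met at mutant 1 and control 2, and the log2 difference was -0.50 (SE 0.18, limma's adjusted p = 0.158).

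The lanosterol steps showed no difference that stood out from the spread. Lss read 454, 287 and 384 on mutant arrays 1, 2 and 3, against 491, 279 and 430.1 on control arrays 1, 2 and 3, a log2 difference of -0.08 (SE 0.23, limma's adjusted p = 0.899). Cyp51 read 864, 623 and 835 on mutant arrays 1, 2 and 3, against 737, 604 and 1002 on control arrays 1, 2 and 3. Its log2 difference was 0.00, with a 95% interval from -0.44 to 0.45, so a change of moderate size in either direction is not excluded by these arrays.

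The late steps, Msmo1 and Dhcr7, were the 2 genes whose mutant arrays all lay below the control arrays, as was the case for 11.0% of all genes. Msmo1 read 4006, 3365 and 3139 on mutant arrays 1, 2 and 3, against 6305, 4324 and 4789 on control arrays 1, 2 and 3. The means were 3504 ± 449.7 in mutant and 5139 ± 1036 in control liver, a log2 difference of -0.54 (SE 0.15, 95% interval -0.87 to -0.21, limma's adjusted p = 0.0744). Dhcr7 read 790.0, 830.3 and 445 on mutant arrays 1, 2 and 3, against 1686, 872 and 1069 on control arrays 1, 2 and 3. The gap between the groups was narrow, from mutant 2 to control 2, and the log2 difference was -0.79 (SE 0.27, 95% interval -1.40 to -0.19, limma's adjusted p = 0.141). It was the lowest of the 8 differences.

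**Figure D2:**
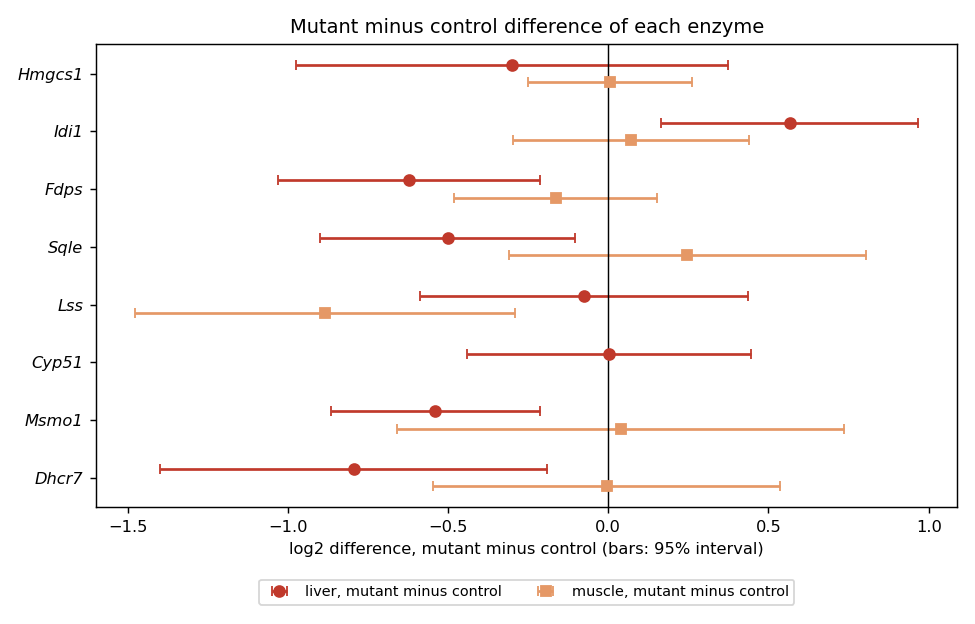
Log2 difference, mutant minus control, of each enzyme in liver and in quadriceps muscle, with the 95% interval of limma's fit (n = 3 arrays in each group). The liver intervals of Idi1, Fdps, Sqle, Msmo1 and Dhcr7 leave out 0 before adjustment, Idi1 on the positive side and the others on the negative side, and Cyp51 was not tested in muscle because it fell below the filter on dim genes.

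The low arrays differed between genes but the shift of the group rested partly on single arrays. Set against the mean of the 3 control arrays, the median log2 value of the 8 genes was -0.14, -0.41 and -0.58 on mutant arrays 1, 2 and 3, against 0.26, -0.41 and 0.20 on control arrays 1, 2 and 3. Control 2 was below the control mean for 8 of 8 genes and was the lowest of the 6 liver arrays for 4 of them. It also had the lowest deposited median intensity, 27.2, against 32.8 to 36.1 on the mutant and 35.2 and 40.1 on the other control liver arrays, and the part of this difference in the results was not tested. Without control 2 the median log2 difference was -0.66, and without control 1, the highest array for 4 of the 8 genes, it was -0.20.

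The high 3′ to 5′ values of mutants 1 and 3 move with genotype in liver, while mutant 2 lay within the control range. With the 3′ to 5′ measure added to the fit, the log2 difference was 0.64 for Idi1, -0.56 for Msmo1, -0.43 for Sqle, -0.40 for Dhcr7, -0.30 for Lss, -0.19 for Fdps, -0.13 for Cyp51 and -0.04 for Hmgcs1, and 0 of 8 passed. Without mutants 1 and 3, which leaves a single mutant array that is assumed to vary like the controls, it was 0.45 for Idi1, -0.58 for Msmo1, -0.57 for Sqle, -0.46 for Dhcr7, -0.41 for Lss, -0.38 for Fdps, -0.28 for Cyp51 and -0.24 for Hmgcs1. The values for Fdps, Dhcr7 and Hmgcs1 were nearer to 0 in both fits, and those for Lss and Cyp51 were lower in both. Markers of Kupffer cells and other macrophages also moved with genotype. The summed level of 8 such genes was 2819 to 3696 on the mutant and 1585 to 2269 on the control liver arrays. In the fit without the 3′ to 5′ measure, 3 of 8 rose past the test, against 310 of all 13326 genes tested. They were Tyrobp, Lyz2 and Vsig4, with log2 differences of 1.34, 1.28 and 0.80. A higher mean was seen for 8 of 8, against 51.2% of all genes. The summed level of 6 hepatocyte markers, normalised over all 12 arrays, was 59442 to 62720 on the mutant and 64275 to 66289 on the control liver arrays. In whole tissue, fewer cells of a type and less RNA per cell cannot be told apart, and the part of these cell markers in the enzyme values was not tested.

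**Figure D3:**
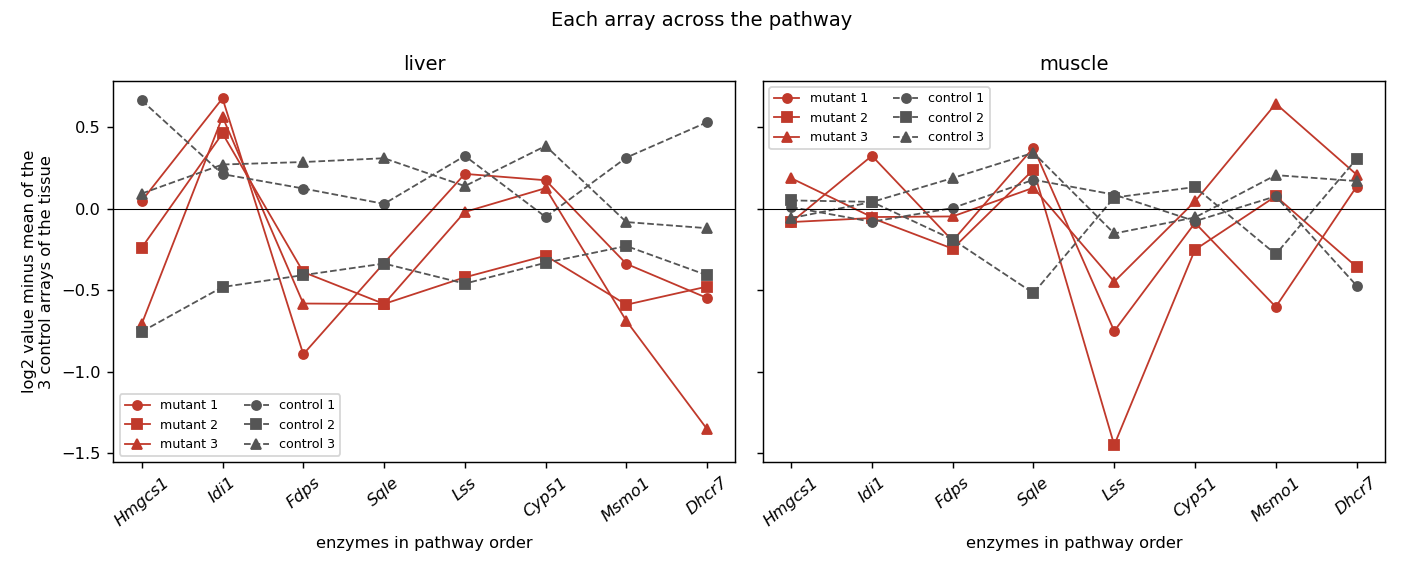
Log2 value of each enzyme minus the mean of the 3 control arrays of its tissue, in pathway order along the axis, with a line for each array and panels for liver and muscle. In liver the line of control 2 runs below 0 for all 8 genes, and the lines of the mutant arrays peak at Idi1.

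Because whole arrays moved up and down, log2 ratios between 2 members were also taken within each liver array, a description chosen after the values had been seen. The ratio of Idi1 to each of the other 7 enzymes did not overlap between mutant and control liver in 7 of 7 cases, higher in mutants each time, with the values as deposited as well. Of the 21 pairs without Idi1, 3 did not overlap. Over all 28 pairs 35.7% did not overlap, against 21.3% of pairs of all genes. Of these 10 pairs 7 held Idi1, so the share describes Idi1 rather than the group. Pairs that share Idi1 are not independent of each other, and this gives no test. The ratio of Idi1 to Fdps was 0.98, 0.26 and 0.55 on mutant arrays 1, 2 and 3, against -0.50, -0.67 and -0.61 on control arrays 1, 2 and 3. The ratio of Idi1 to Msmo1 was -0.12, -0.08 and 0.12 on mutant arrays, against -1.23, -1.38 and -0.78 on control arrays, and that of Idi1 to Dhcr7 was 2.20, 1.92 and 2.89 on mutant arrays, against 0.66, 0.90 and 1.37 on control arrays. These ratios show unequal change and not which of the 2 genes moved. In muscle the ratio of Idi1 did not overlap for 1 of 7, and 7 of the 28 pairs did not overlap, against 10.2% of pairs of all genes. Apart from Fdps with Sqle, every one of these muscle pairs held Lss. The Lss probe set used is dim in muscle and had a log2 difference of -0.88 there. The other Lss probe sets gave 0.19 and 0.52 but were dimmer still on the control muscle arrays. The set with 0.19 fell below the filter on dim genes. The muscle count therefore describes Lss rather than the group.

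Both Idi1 probe sets put the liver arrays in the same order, and the second kept the separation of the groups. Among the Hmgcs1 probe sets above background only mutants 1 and 2 changed places, while the order differed more between those of Lss and of Cyp51. The second Idi1 probe set read 1581, 1311 and 1385 on mutant arrays 1, 2 and 3, against 956, 604 and 1249 on control arrays 1, 2 and 3, with a log2 difference of 0.65. The other 3 Hmgcs1 probe sets above background had log2 differences of -0.20, -0.13 and -0.52, and for each of them control 1 was the highest liver array. The other Lss probe sets gave -0.19 and 0.05, and the other Cyp51 probe sets gave 0.28 and -0.12, all close to their standard errors or within them. The second probe sets of Fdps and Msmo1 and the fifth of Hmgcs1 were too dim to be tested.

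**Figure D4:**
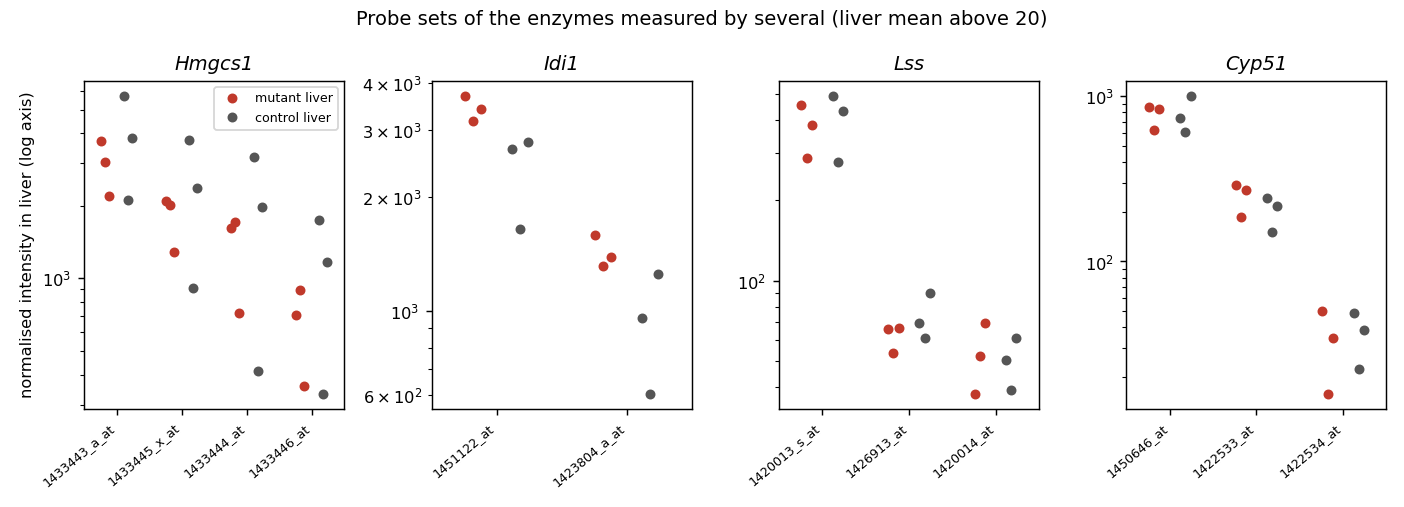
Normalised intensity of the probe sets of Hmgcs1, Idi1, Lss and Cyp51 with a mean above 20 in liver, by array, with mutant left of control. Both Idi1 probe sets lie higher on every mutant than on every control array, while the Hmgcs1 probe sets all spread widely over the control arrays.

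Within liver the 8 enzymes varied together from array to array. After each array's value was set against the mean of its own genotype group, 27 of the 28 pairs of enzymes correlated positively over the 6 arrays, with a median Pearson r of 0.64 (range -0.09 to 0.93), against a median of 0.01 for pairs of all genes. Hmgcs1 and Msmo1 had an r of 0.93 and Idi1 and Sqle an r of 0.91, so Idi1 varied with Sqle from array to array although their group differences had opposite signs. The points share arrays and their scaling: left unscaled, the deposited values gave a median of 0.76, and median centring gave 0.54. In muscle, 19 of 28 pairs were positive, with a median of 0.16.

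In quadriceps muscle the mutant and control arrays were close for most of the 8 enzymes. None of the 7 tested passed in limma's fit, against 0.0152% of the 13131 genes tested, and 1 of 7 had an unadjusted p below 0.05, against 4.26% of genes. The median log2 difference was 0.01. Hmgcs1, the enzyme read most clearly here, was 415, 416 and 504 on mutant arrays 1, 2 and 3, against 444, 457 and 423 on control arrays 1, 2 and 3, a log2 difference of 0.01. Idi1 was 72.3, 51.8 and 52.1 on mutant arrays, against 50.7, 56.6 and 56.6 on control arrays, a log2 difference of 0.07. Fdps was 139, 134 and 156 on mutant arrays, against 162, 139.8 and 186 on control arrays, a log2 difference of -0.16 (SE 0.14). In each of these 3 genes the groups overlapped.

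Lss was the muscle gene with the unadjusted p below 0.05. It read 18.01, 4.95 and 26.0 on mutant arrays 1, 2 and 3, against 44.8, 44.0 and 35.5 on control arrays 1, 2 and 3, so that all mutant arrays lay below all control arrays. This was the case for 5.22% of all genes, and the groups did not overlap in either direction for 9.54%. The log2 difference was -0.88 (SE 0.27, 95% interval -1.48 to -0.29), and it did not pass (limma's adjusted p = 0.994). The other 2 Lss probe sets gave 0.19 and 0.52, and their mean with the first gave -0.06. On the control arrays these 2 read lower than the first, at 3.00 to 14.6 and 2.57 to 15.8. The set with 0.19 was below the filter and not tested. Sqle, at 26.8 to 34.8 on mutant and 11.3 to 33.7 on control arrays, had a log2 difference of 0.25. Msmo1, at 8.45 to 42.0 on mutant and 14.6 to 26.8 on control arrays, had one of 0.04, and Dhcr7, at 30.6 to 52.9 on mutant and 27.0 to 57.7 on control arrays, had one of -0.00. The groups overlapped for all 3. Cyp51, at 8.85 to 14.5 on mutant and 12.04 to 16.4 on control arrays, was below the filter and not tested.

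The difference between the mutation's effect in liver and in muscle was tested as an interaction. None of the 7 enzymes that could be tested passed in limma's fit, against 1.42% of the 11841 genes tested, and 2 of 7 had an unadjusted p below 0.05, against 15.5% of genes. These were Sqle, with a liver minus muscle difference of -0.75 (SE 0.30, adjusted p = 0.245), and Lss, with 0.81 (SE 0.36, adjusted p = 0.301). The value for Lss rested on its brightest probe set, which is dim in muscle. Another Lss probe set, dimmer still on the control muscle arrays, gave -0.47, and the mean of all Lss probe sets gave -0.01. For Idi1 it was 0.50 (adjusted p = 0.366) and for Dhcr7 it was -0.79 (adjusted p = 0.359). A difference between the tissues was therefore not shown for any of the 7.

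Another 11 enzymes of the pathway were measured. In liver 0 of 11 passed limma's test, against 3.35% of all genes, and 2 of 11 had an unadjusted p below 0.05, against 19.6% of all genes, a share near the background. A total of 8 had a lower mean in mutants and the median log2 difference was -0.14. The smallest p-values belonged to Nsdhl, a sterol dehydrogenase of the demethylation steps, at 1002 ± 171 in mutant and 1288 ± 91.6 in control liver (log2 difference -0.37, limma's adjusted p = 0.198), to Fdft1, the squalene synthase, at 994 ± 90.6 in mutant and 1300 ± 241 in control liver (log2 difference -0.37, limma's adjusted p = 0.232), and to Mvd, the mevalonate diphosphate decarboxylase, with a log2 difference of 0.42 (adjusted p = 0.444). In muscle 0 of 11 passed, against 0.0152% of all genes, and 1 of 11 had an unadjusted p below 0.05, against 4.26% of all genes. The smallest p-values there were those of Mvd, at 17.5 ± 16.3 in mutant and 35.9 ± 7.88 in control muscle (log2 difference -0.72, limma's adjusted p = 0.994), Pmvk, the phosphomevalonate kinase (-0.29), and Fdft1 (-0.10).

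Among 11 measured regulators and transporters of sterols, 1 fell and 0 rose past the test in mutant liver, where 3.35% of all genes passed, and 6 had an unadjusted p below 0.05, against 19.6% of all genes. Scap, the escort protein of SREBP factors, read 647, 775 and 702 on mutant arrays 1, 2 and 3, against 1258, 1181 and 1207 on control arrays 1, 2 and 3. All mutant arrays were far below all control arrays, at 708 ± 64.6 in mutant and 1215 ± 39.6 in control liver (SD, n = 3 each), a log2 difference of -0.77 (SE 0.13, limma's adjusted p = 0.0183). The adjusted p was above the threshold without mutants 1 and 3 (difference -0.61, adjusted p = 0.394), with the integrity measure in the fit (-0.62, adjusted p = 0.440), with the mean of all its probe sets (-0.39, adjusted p = 0.235) and in 5 of the 6 fits that left out a single array. It stayed below the threshold in 6 of the 17 alternatives run. In muscle the Scap difference was 0.07, and the liver minus muscle difference of -0.84 did not pass (adjusted p = 0.0620).

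The other regulators with an unadjusted p below 0.05 in liver did not pass after adjustment. The cholesterol exporter Abca1 had a log2 difference of -0.62 (limma's adjusted p = 0.0716), and the sterol transporters Abcg5 and Abcg8, which form a pair in the canalicular membrane, had differences of -0.59 and -0.53. Nr1h3, the oxysterol receptor LXR alpha, had a difference of 0.47, and Insig2, which holds SCAP in the endoplasmic reticulum, one of 0.35. Srebf2, the gene of SREBP-2, read 277 ± 7.47 in mutant and 309 ± 69.8 in control liver (log2 difference -0.13, limma's adjusted p = 0.756), and Insig1, a classic SREBP target, had a difference of 0.14 (adjusted p = 0.783). In muscle 0 of 10 tested passed, against 0.0152% of all genes, and 1 had an unadjusted p below 0.05, against 4.26% of all genes. This was Stard4, a sterol carrier, with a difference of 0.45 (limma's adjusted p = 0.994). The muscle difference was 0.11 for Srebf2 and 0.09 for Insig1.

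The genes most like the group were taken as those whose deviations from their group means correlated best with the mean deviation of the 8 enzymes over the 12 arrays, among 11834 genes. They were Adam23 (r = 0.95), Bbs5 (0.93), Dvl1 (0.93), Mir99ahg (0.93), Mapkapk3 (0.92) and Prss29 (0.92). The other listed enzymes and regulators were spread widely over the ranks. Mvd ranked 73 (r = 0.82), Srebf2 284 (0.70), Ebp, the sterol isomerase, 312 (0.69) and Insig1 514 (0.61), while Nr1h3 ranked 5116 (0.05), Nsdhl 5342 (0.03), Scap 5676 (0.00), Lbr 6470 (-0.07), Insig2 7108 (-0.12) and Ggps1 7350 (-0.15). The 12 points share arrays and scaling, and the ranks are a description with no test.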

How the data were processed

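Total RNA from liver and quadriceps muscle was read on Affymetrix Murine 430 2.0 arrays, 12 in all, 3 in each group of tissue and genotype, grouped by the labels. The deposited values are linear signal intensities, 1 per probe set and array. The summarisation, background correction and scaling the authors used stand in none of the sources used here. Clustering used d-Chip, per the labels. Arrays carry no counts, so their number limits the precision.

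Control probe sets (64 of 45101) were left out. Of the remaining 45037, 34945 had a single gene symbol, 932 had several and 9160 had none in the platform annotation. Intensities were taken to log2(intensity + 16), quantile normalised within each tissue (over all 12 arrays for comparisons of tissues), and reduced to the probe set with the highest mean for each gene. Genes below the 40th percentile of mean level in a tissue were not tested there. The interaction took genes above it in both tissues, and the comparisons of tissues took genes above it in either. Differences were tested with limma 3.58.1 (R 4.3.3, lmFit and eBayes with a variance trend), and p-values adjusted by Benjamini-Hochberg over every gene tested, with 0.05 as the threshold. The fits were tested on simulated data.

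The enzymes and the gene lists were chosen with earlier results of these data known. Named were all 8 enzymes; for other enzymes, those past the test and the 3 with the smallest p in each tissue; for regulators, those with an unadjusted p below 0.05 plus Srebf2 and Insig1; and the 6 genes most like the group. Alternatives covered the offset, the filter, scaling, variance trend, choice of probe set, replicate numbers, RNA integrity and each array left out.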

Additional observations from a re-analysis of the deposited data

How the results depend on the processing

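The count of enzymes past limma's threshold was the same in every alternative run: 0 in liver (17 alternatives, 5 of 8 with an unadjusted p below 0.05 in the fit as reported), 0 in muscle (16), 0 for the difference between tissues (22) and 8 for liver against muscle in mutant (16) and in control mice (15). Idi1, Fdps, Sqle, Msmo1 and Dhcr7 kept their sign in liver in 17 of 17; the lowest adjusted p was 0.0508 for Idi1 (median centring) and 0.0566 for Fdps (without control 2), and Hmgcs1 turned to 0.03 without control 1. Lss kept its sign in 15 of 17 and Cyp51 in 11 of 17. The liver median of -0.40 ranged from -0.66 to -0.20 when single arrays were left out, and was -0.18 on the deposited values without scaling and -0.19 after median centring. The liver against muscle median was 3.68 in mutants and 4.14 in controls with an offset of 1, and 2.57 in mutants and 2.99 in controls with an offset of 64. It was 3.78 in mutants and 4.22 in controls as deposited, and 2.81 in mutants and 3.09 in controls with the mean of all probe sets. The offset acts on genes dim in muscle. The mean of all probe sets takes in sets too dim to be tested, such as the second of Fdps and of Msmo1, which narrows their gap. The cause of the shift as deposited was not tested.

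The count of genes past the threshold in liver, 447, was far less stable: 222 with no filter, 297 as deposited, 0 with no variance trend (2615 with an unadjusted p below 0.05 in the fit as reported), 171 with the mean of all probe sets, 2 with the RNA integrity measure in the fit, 0 without mutants 1 and 3, and 0 to 742 with single arrays left out. The genes higher and lower in mutant liver numbered 310 and 137 as reported, 279 and 18 as deposited and 300 and 33 with median centring. Muscle had 2, and 0 with no variance trend, or 1 with the mean of all probe sets or without control 1 or 2. For the difference between tissues, 168 genes became 58 with no filter or with median centring, 57 as deposited, 0 with no variance trend, 85 with the mean of all probe sets, 10 without mutants 1 and 3 and 12 to 391 with single arrays left out. In the tissue comparisons, testing every probe set gave 14871 against 7957 in mutants and 14719 against 7988 in controls. Genes higher and lower in liver than in muscle numbered 4051 and 3906 in mutants and 3846 and 4142 in controls, against 6930 and 2342 in mutants and 6282 and 2149 in controls as deposited.

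Samples with the same replicate number did not deviate together (r between -0.12 and -0.01 in liver and between 0.04 and 0.18 in muscle), so the numbers were not used as pairs. With a replicate block, 11 genes passed in liver and 102 for the difference between tissues, 0 of 8 enzymes passed, and Msmo1 had an adjusted p of 0.0610. Probes that read dim in muscle limit what can be said of Cyp51, Lss, Sqle and Msmo1 there.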
